A study of Mus musculus with 15 samples.

Results

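The 7 genes described here belong to the vessel wall and to leukocyte adhesion, and were followed in mouse spleen after radiation, with or without a burn. They were chosen by symbol from a panel table of 561 genes: Cdh5, Pecam1, Cd34, Vcam1, Icam1, Icam2 and Ptk2. All 7 were found, and all 7 passed the filter on low counts together with 419 other endogenous genes, so 426 genes were tested. The groups were Sham, which went through the procedures uninjured, WBIR, irradiated over the whole body with 9 Gy, and RCI, given that dose and a burn of 20% of the body surface. WBIR+MSC-EVs and RCI+MSC-EVs mice were given MSC-EVs, extracellular vesicles of bone marrow mesenchymal stem cells, into a vein 72 hours after the injury. The labels name PBS as the vehicle for RCI alone, and saline for the other untreated groups comes from the study's methods. All mice were young adult female C57BL/6J, and the MSC came from the same strain. Spleens were taken 48 hours after the vesicles, made into cell suspensions and freed of red cells, and how far this frees cells of the vessel wall is not stated. Each group held 3 samples, and whether these were 3 mice is not stated, so the p-values measure the spread between these samples, which may be technical.

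Leukocytes leave the blood in steps. Selectins and their mucin ligands let cells roll, activated integrins then bind immunoglobulin-type ligands on the endothelium, and the cells pass through junctions held by homophilic adhesion molecules. Among these genes, Cdh5 encodes VE-cadherin, the cadherin of endothelial junctions, and Pecam1 a junction molecule that platelets and leukocytes also carry. Cd34 encodes a sialomucin of small vessels and of blood-forming progenitors. Vcam1, Icam1 and Icam2 encode integrin ligands. Vcam1 and Icam1 are induced by inflammatory cytokines, while Icam2 is present at rest on endothelium, platelets and lymphocytes. Ptk2 encodes focal adhesion kinase, which relays signals from bound integrins in many cell types. Icam1 lies beside Icam4 on chromosome 9, and Icam2 and Pecam1 lie on chromosome 11 with 2 coding genes between them.

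For 2 of the 7 genes a RefSeq promoter sequence of build GRCm38.p6 was at hand, Icam1 and Cd34, whose values lay in opposite directions between burned and unburned irradiated mice, without passing the adjusted test. The 250 bases before the start of each gene are shown, 5′ to 3′ on the plus strand, from chr9:21015690-21015939 for Icam1 and chr1:194938571-194938820 for Cd34. Capitals mark matches to an NF-kB type motif, GGNNTTTCC, or a STAT type motif, TTCNNNGAA, searched on both strands.
Icam1: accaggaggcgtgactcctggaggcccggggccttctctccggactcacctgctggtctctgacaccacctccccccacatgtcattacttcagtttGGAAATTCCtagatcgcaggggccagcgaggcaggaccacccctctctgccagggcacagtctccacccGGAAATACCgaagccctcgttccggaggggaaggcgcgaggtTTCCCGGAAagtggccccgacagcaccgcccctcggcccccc
Cd34: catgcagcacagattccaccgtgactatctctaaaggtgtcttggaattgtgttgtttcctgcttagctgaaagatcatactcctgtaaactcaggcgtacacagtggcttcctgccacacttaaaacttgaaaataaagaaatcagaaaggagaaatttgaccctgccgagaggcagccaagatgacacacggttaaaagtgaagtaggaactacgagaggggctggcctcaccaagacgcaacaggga
The Icam1 window held 2 NF-kB type matches on the minus strand, which begin 153 and 84 bases before the start, and 1 STAT type match 42 bases before it. The Cd34 window held neither, and had 1 match to an ETS core, AGGAAG, on the minus strand, 142 bases before the start and not in capitals. Over 27025 windows of the same length, 4.84% held the NF-kB type motif, 7.18% the STAT type and 29.2% the ETS core. These matches describe the letters of the windows and do not show that a factor bound there.

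Values below are barcode counts divided by a sample factor, the geometric mean of 14 reference genes set to 1 over the samples, and are called scaled counts. Differences are log2 fold changes (log2FC) with their standard error (SE), and called means an adjusted p under 0.05, taken over all 426 genes. Total counts ran from 90127 to 598872 per sample. The reference genes were not steady against Sham: between 5 and 7 of the 14 moved over 2-fold, G6pdx upward by up to 3.07 and Tubb5 by as far as -2.71 on the log2 scale. Over all tested genes the log2FC against Sham had a median of -0.74 in WBIR and -0.53 in RCI, and with vesicles of -0.61 in WBIR+MSC-EVs and -0.45 in RCI+MSC-EVs, and between -0.08 and 0.01 with TMM scaling over the endogenous genes. Changes against Sham are therefore given under both scalings where the call or direction differs. The libraries that stood apart were 3. Sham replicate 2 had a reference factor only 0.547 times its TMM factor, WBIR+MSC-EVs replicate 1 was the shallowest, and RCI replicate 3 differed from its group mates with a chi-square of 185 to 238 per degree of freedom, against 11.9 between those mates. The 4 comparisons with Sham share the same 3 Sham samples.

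Ptk2 and Icam2 separated the 12 irradiated samples from Sham in opposite directions. Ptk2 was 75.5, 94.2 and 70.8 scaled counts in Sham replicates 1 to 3, 309.5, 327 and 311 in WBIR, and 317, 346 and 327 in WBIR+MSC-EVs. It was 314, 287 and 329 in RCI and 349, 341 and 317 in RCI+MSC-EVs. Every irradiated sample was above every Sham sample, and the irradiated groups overlapped each other. The share of all tested genes that separate groups without overlap was not counted, here or below. Calls against Sham were common, with 292 of the 426 genes in WBIR and 296 in RCI. Ptk2 rose 3.98-fold in WBIR, by a log2FC of 1.99 ± 0.18 (SE, adjusted p = 5.9e-07), and 4.16-fold in WBIR+MSC-EVs, 3.90-fold in RCI and 4.22-fold in RCI+MSC-EVs. In WBIR and in both MSC-EV groups its spread was the smallest of the 7 genes, and TMM scaling put the 4 log2FC between 2.39 and 2.61.

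Icam2 was 837, 928 and 658 scaled counts in Sham, 143, 83.4 and 99.9 in WBIR, and 158, 119.6 and 128 in WBIR+MSC-EVs. It was 171, 158 and 164 in RCI and 211, 189 and 131 in RCI+MSC-EVs. All 12 irradiated samples were below all 3 Sham samples. Icam2 was 7.44-fold lower in WBIR, with a log2FC of -2.89 ± 0.26 (SE, adjusted p = 5.7e-07), 6.01-fold lower in WBIR+MSC-EVs, 4.90-fold lower in RCI and 4.55-fold lower in RCI+MSC-EVs. With TMM scaling the 4 log2FC ran from -2.26 to -1.80, and each was called. Summed B cell markers, all 9 of which were lower in every irradiated group, moved with Icam2: they were 18056 to 20467 in Sham and 856 to 1794 in the irradiated samples, with no marker at 0. Summed T cell markers were 7889 to 17948 in Sham and 1938 to 4284 in the irradiated samples. The part of these cells in the fall of Icam2 was not tested, and in bulk RNA fewer cells of a type and less RNA per cell cannot be told apart.

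**Figure D1:**
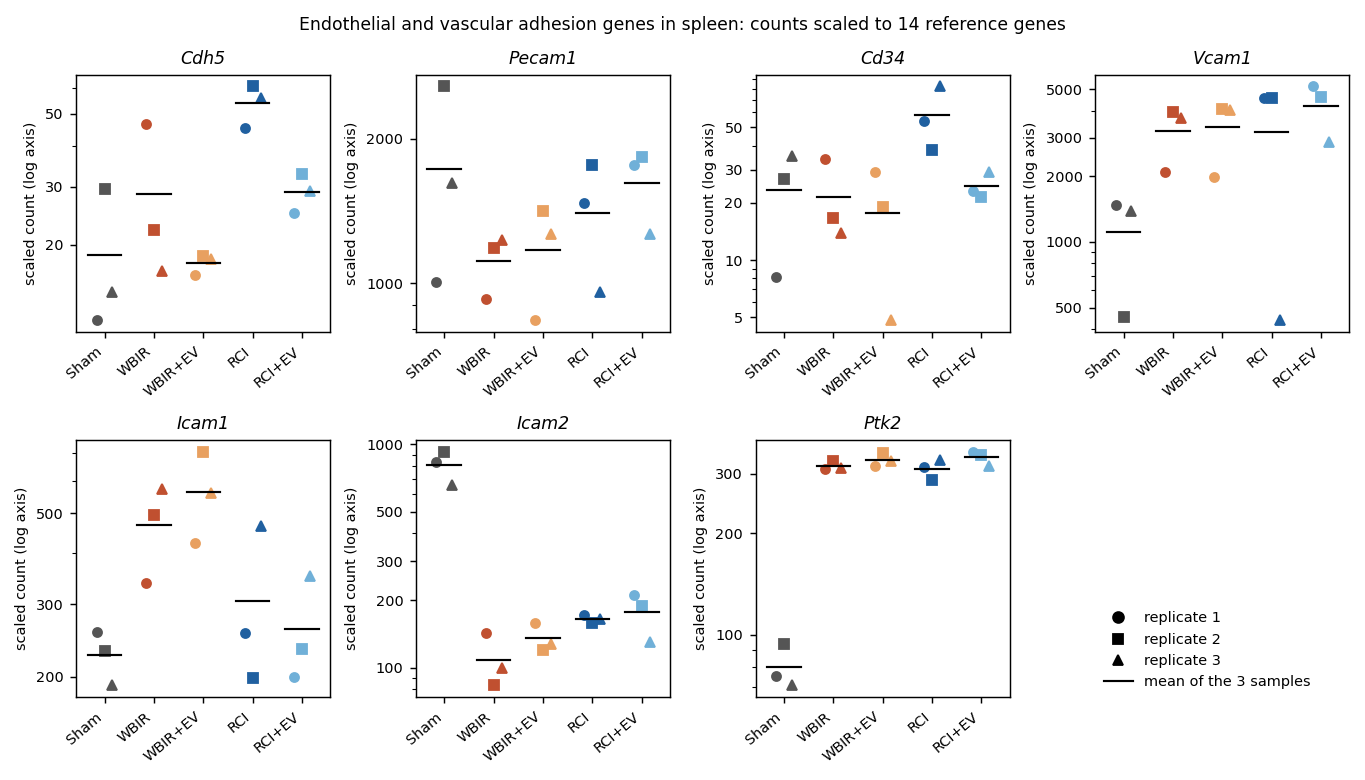
Scaled counts of the 7 genes on log axes (y axes), each point a sample, grouped by injury and treatment (x axes, with EV for MSC-EVs), with marker shape for the replicate and a line for the mean of 3. Ptk2 lay between 287 and 349 and Icam2 between 83.4 and 211 in the irradiated samples, clear of Sham in each case.

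The inducible ligands Vcam1 and Icam1 were each higher in some irradiated groups. Vcam1, the ligand of the integrin pair of Itga4 and Itgb1, was 1479, 452 and 1391 scaled counts in Sham, 2085, 3942 and 3702 in WBIR, and 1988, 4061 and 4038 in WBIR+MSC-EVs. It was 4581, 4576 and 439 in RCI and 5175, 4623 and 2861 in RCI+MSC-EVs. In 11 of the 12 irradiated samples Vcam1 was above all Sham samples, and RCI replicate 3 was below all of them. With TMM scaling RCI replicate 3, at 554, lay within the Sham range of 247 to 1295. Vcam1 rose in WBIR+MSC-EVs, by a log2FC of 1.60 ± 0.67 (SE, adjusted p = 0.0478), and in RCI+MSC-EVs, by 1.93 ± 0.68 (adjusted p = 0.0217). The WBIR value of 1.55 ± 0.67 (adjusted p = 0.0530) and the RCI value of 1.53 ± 0.67 (adjusted p = 0.0560) did not pass, and the 95% interval in RCI ran from 0.09 to 2.96.

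The Vcam1 calls turned on single libraries and on scaling. Without RCI replicate 3 the log2FC was 2.04 in RCI (adjusted p = 0.00172) and 1.54 in WBIR (adjusted p = 0.00561), both called. With TMM scaling it was called in all 4 groups, at 1.74 to 2.10. The WBIR+MSC-EVs call held in only 9 of 24 alternatives, and that of RCI+MSC-EVs in 22. Without Sham replicate 2 Vcam1 was 1.23 in WBIR+MSC-EVs (adjusted p = 0.158) and 1.56 in RCI+MSC-EVs (adjusted p = 0.0859), neither called, and without RCI+MSC-EVs replicate 1 the latter was 1.75 (adjusted p = 0.0590). Summed macrophage markers, a cell class that carries Vcam1 in splenic red pulp, were 2277 to 3131 in Sham and 10905 to 39231 in the irradiated samples, with none of the 8 at 0 in any sample. RCI replicate 3 had the highest sum and the lowest irradiated Vcam1 value. Most of that sum was Marco alone, whose values are given below, so it does not rank the sample in the other macrophage markers. The part of these cells in the Vcam1 values was not tested.

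Icam1, the ligand of the integrins of Itgal or Itgam with Itgb2, was 257, 231 and 191 scaled counts in Sham, 338, 495 and 574 in WBIR, and 423, 706 and 559.8 in WBIR+MSC-EVs. It was 255, 199 and 464 in RCI and 200.2, 234 and 352 in RCI+MSC-EVs. All 6 samples without a burn were above Sham, whereas 4 of the 6 burned samples lay within the Sham range. Icam1 rose 2.07-fold in WBIR, by a log2FC of 1.05 ± 0.34 (SE, adjusted p = 0.0123), and 2.50-fold in WBIR+MSC-EVs, by 1.32 ± 0.34 (adjusted p = 0.00333). Against Sham it was 0.44 ± 0.33 in RCI (adjusted p = 0.249) and 0.21 ± 0.34 in RCI+MSC-EVs (adjusted p = 0.594), neither called. Without RCI replicate 3 the RCI value was 0.01, and without WBIR replicate 3 the WBIR value of 0.88 lost its call (adjusted p = 0.0538). TMM scaling brought Icam1 past the threshold in RCI, at 0.97 ± 0.41 (adjusted p = 0.0468).

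The junction genes Cdh5 and Pecam1 did not follow each other. Cdh5 was a low count gene, with 5 to 87 raw counts per sample, and counting error is a larger share of its spread. It was 11.8, 29.6 and 14.3 scaled counts in Sham, 46.6, 22.2 and 16.7 in WBIR, and 16.2, 18.5 and 18.1 in WBIR+MSC-EVs. It was 45.3, 60.6 and 55.7 in RCI and 24.9, 32.8 and 29.2 in RCI+MSC-EVs. All 3 RCI samples were above all Sham and all RCI+MSC-EVs samples. Cdh5 rose 3.13-fold in RCI against Sham, by a log2FC of 1.65 ± 0.42 (SE, adjusted p = 0.00280), and did so in all 24 alternative settings. The WBIR value of 0.71 ± 0.43 (adjusted p = 0.151) and the RCI+MSC-EVs value of 0.75 ± 0.42 (adjusted p = 0.131) were not called. Without Sham replicate 2 both were, at 1.09 (adjusted p = 0.0331) and 1.13 (adjusted p = 0.0279), and without WBIR replicate 1 the WBIR value was 0.18. With TMM scaling all 12 irradiated samples were above Sham, and Cdh5 was called in WBIR, RCI and RCI+MSC-EVs, at 1.35, 2.14 and 1.08.

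Pecam1 was 1007, 2575 and 1618 scaled counts in Sham, 927, 1184 and 1227 in WBIR, and 837, 1410.3 and 1268 in WBIR+MSC-EVs. It was 1469.7, 1767 and 956 in RCI and 1764, 1831 and 1268 in RCI+MSC-EVs. Its 5 groups overlapped, and no comparison with Sham was called. Its direction against Sham depended on the scaling: the log2FC was between -0.64 and -0.09 with the reference genes and between 0.05 and 0.30 with TMM. Without Sham replicate 1 it was called lower in WBIR, at -0.91 (adjusted p = 0.0218), and in WBIR+MSC-EVs, at -0.83 (adjusted p = 0.0335).

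Cd34, at 8 to 129 raw counts per sample, was 8.19, 26.9 and 35.4 scaled counts in Sham, 33.9, 16.7 and 13.9 in WBIR, and 29.1, 19.1 and 4.83 in WBIR+MSC-EVs. It was 54.2, 38.2 and 82.5 in RCI and 23.1, 21.5 and 29.2 in RCI+MSC-EVs. On this scale the 3 RCI samples were the highest of the 15, while with TMM scaling WBIR replicate 1 (39.6) lay above RCI replicate 2 (35.1). The log2FC in RCI against Sham was 1.34 ± 0.59 (SE, adjusted p = 0.0569), just short of the threshold, and 1.85 ± 0.61 with TMM scaling (adjusted p = 0.0151), which was called. Leaving out RCI replicate 2, Sham replicate 3 or WBIR+MSC-EVs replicate 3 also brought it past the threshold, at 1.56, 1.92 and 1.34 (adjusted p = 0.0456, 0.0305 and 0.0308). Without RCI replicate 3 it was 1.00 (adjusted p = 0.179) and without Sham replicate 1 it was 0.88 (adjusted p = 0.188), and 7 of 24 alternatives called it. Against Sham the other groups were at -0.14 in WBIR, -0.58 in WBIR+MSC-EVs and 0.08 in RCI+MSC-EVs, none called, and the WBIR value was 0.46 with TMM. In the summed progenitor markers, 6 genes beside Cd34, Sham was at 1624 to 2597 and RCI at 1293 to 1522, which overlapped with TMM scaling (1393 to 1432 and 1304 to 1633), and the part of progenitors in Cd34 was not tested.

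Counted over the 7 genes, 2 were higher and 1 lower in WBIR against Sham, where edgeR called 21.6% of all tested genes higher and 46.9% lower. In WBIR+MSC-EVs 3 were higher and 1 lower, against 22.8% and 45.1% of all genes. In RCI 2 were higher and 1 lower, against 26.5% and 43%, and in RCI+MSC-EVs 2 were higher and 1 lower, against 23.9% and 41.3%. The median log2FC of the 7 genes was 0.71, 0.06, 1.34 and 0.21 in these groups, above the medians of all genes given earlier. With TMM scaling 4 were higher and 1 lower in WBIR, where 31.7% and 35.2% of all genes were called, and 3 were higher and 1 lower in WBIR+MSC-EVs, against 31% and 34.5%. The TMM counts were 5 higher and 1 lower in RCI, against 35.4% and 35%, and 3 higher and 1 lower in RCI+MSC-EVs, against 32.2% and 35%. Cd34, Vcam1 and Icam1 were the genes added by TMM in RCI.

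**Figure D2:**
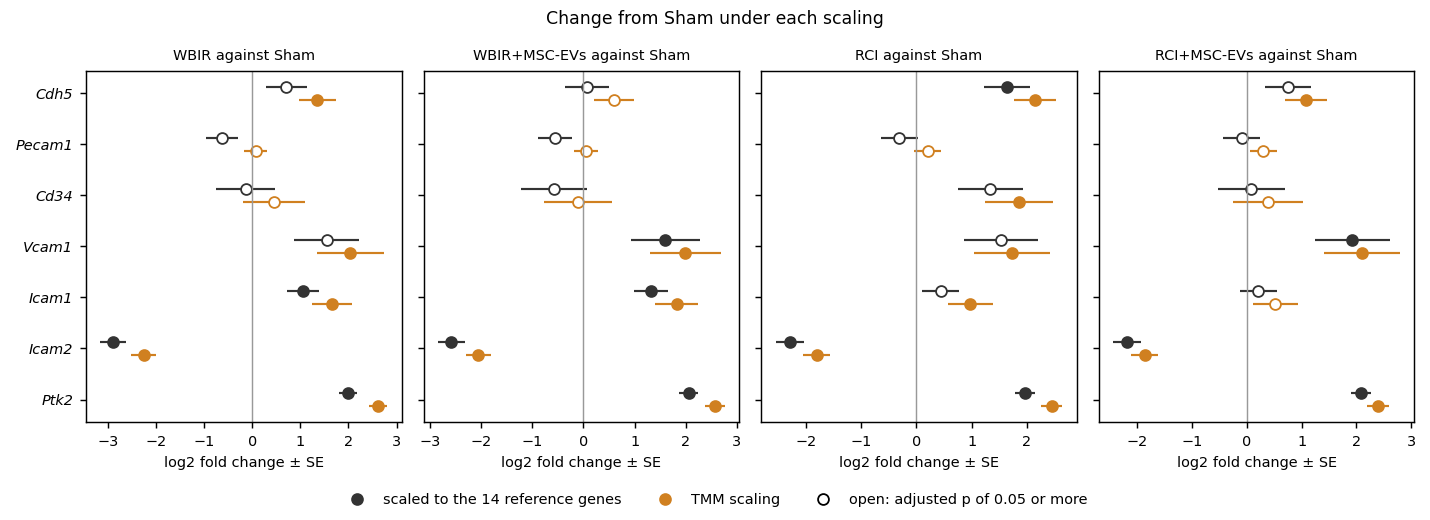
Log2FC ± SE (x axes) of the 7 genes (y axis) in the 4 irradiated groups against Sham, scaled to the reference genes (dark) or by TMM (orange), with filled points for an adjusted p under 0.05. TMM values lie to the right of the reference values throughout, Pecam1 crosses 0, and Icam2 and Ptk2 keep their direction and call.

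Ratios of genes within a sample need no scaling. Ptk2 over Icam2 in raw counts was 0.0902 to 0.108 in Sham and 1.65 to 3.92 in the irradiated samples, without overlap. Icam1 over Icam2 was 0.249 to 0.308 in Sham, 2.37 to 5.93 in WBIR, 2.67 to 5.90 in WBIR+MSC-EVs, 1.26 to 2.82 in RCI and 0.948 to 2.69 in RCI+MSC-EVs. Both ratios put every irradiated sample above Sham, so these genes changed unequally whatever the scaling. Cdh5 over Pecam1 was 0.00886 to 0.0117 in Sham, 0.0136 to 0.0503 in WBIR and 0.0308 to 0.0582 in RCI, and RCI lay above both MSC-EV groups, which reached 0.0193 and 0.0230. Vcam1 over Icam1 was 8.13 to 25.8 in RCI+MSC-EVs and 0.945 to 23.0 in RCI, where RCI replicate 3 was the low sample, and it was 4.69 to 7.97 in the 6 unburned irradiated samples.

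**Figure D3:**
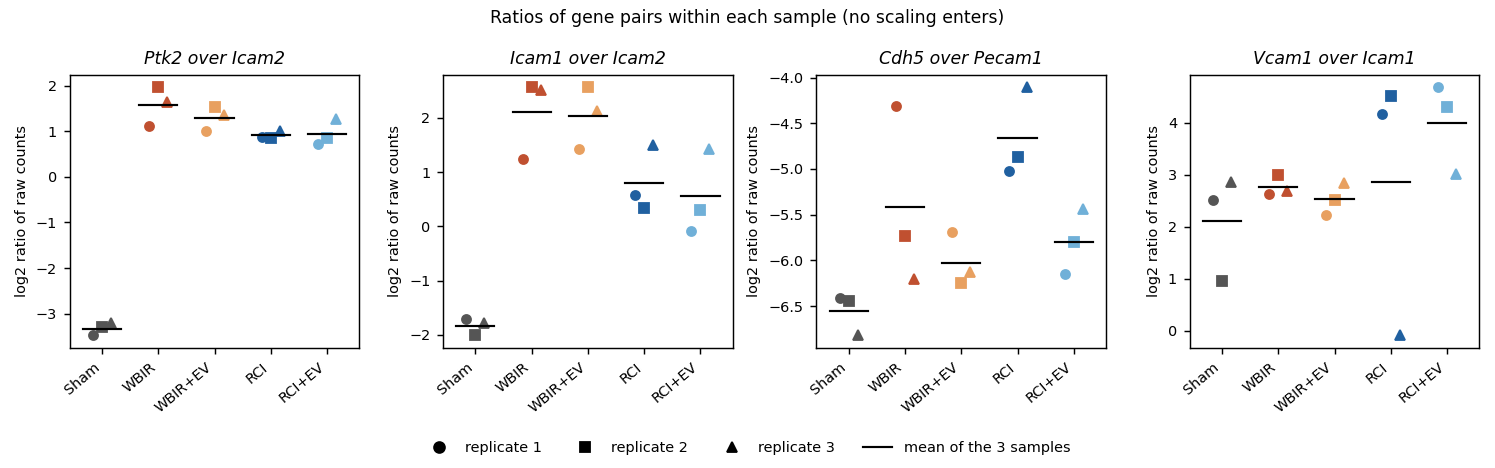
Log2 ratio of raw counts of gene pairs (y axes) in each sample by group (x axes), with marker shape for the replicate and a line for the mean of 3. Ptk2 over Icam2 and Icam1 over Icam2 separate Sham from the irradiated samples, and RCI replicate 3 stands alone in Vcam1 over Icam1.

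The 7 genes did not share a pattern across the 15 samples. Likeness was measured as the root mean square difference of log2 profiles centred on their own means, which scaling does not touch and where 0 is identity. Between members it ran from 0.68 for Cdh5 and Cd34 to 1.94 for Vcam1 and Icam2. Other defining endothelial genes, Tek, Kdr, Eng, Tie1 and Vwf, were not analysed here, and of the members Cdh5 is the most restricted to endothelium, while the others are also carried by blood cells or other tissue cells.

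The genes most like each member are given with this distance, over 425 other tested genes, as descriptions. Ptk2 was nearest to Bst2, an interferon-induced restriction factor, at 0.22, then Cebpb, a myeloid transcription factor, at 0.25 and Ifih1, an RNA sensor, at 0.25, against a median of 1.13. Icam2 was nearest to Tagap at 0.17, Ncf4, an NADPH oxidase subunit, at 0.29 and Traf5, a signalling adaptor, at 0.29, against a median of 0.97. Pecam1 was nearest to Tapbp, the peptide-loading factor tapasin, at 0.17, Irak1 at 0.27 and Runx1 at 0.27, against a median of 0.75. The other members had looser neighbours. Vcam1 was nearest to Entpd1, an ectonucleotidase, at 0.40, C6, a terminal complement component, at 0.42 and Tlr8 at 0.44, and Icam1 to Itgb2, which encodes the beta chain of its own receptors, at 0.42, Psmb10 at 0.56 and Ebi3 at 0.58. Cdh5 was nearest to Csf1, the macrophage growth factor, at 0.43, Lilra6 at 0.48 and Myd88 at 0.50. Cd34 was nearest to Il7, a stromal cytokine, at 0.66, Cxcl13, a follicular chemokine, at 0.66 and Cdh5 at 0.68, against a median of 1.17.

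The leukocyte partners of these genes changed unequally. Itga4, the alpha chain of the Vcam1 receptor, was 879.8, 1456 and 1786 in Sham and 145 to 425 in the irradiated samples, with log2FC of -2.36 ± 0.32 in WBIR and -2.28 ± 0.32 in RCI (SE, adjusted p = 2.3e-05 and 2.9e-05). Its partner chain Itgb1 was 679.6, 1189 and 797 in Sham and 1126 to 2059 in the irradiated samples, and rose by 0.56 ± 0.23 in WBIR and 0.88 ± 0.23 in RCI (adjusted p = 0.0414 and 0.00344). The chains of the Vcam1 receptor thus moved in opposite directions, under TMM scaling too, where Itga4 was at -1.74 and Itgb1 at 1.24 in WBIR.

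The partners of Icam1 and Icam2 were split as well. Itgal, the alpha chain of the receptor of both, was 1183, 2268 and 951 in Sham and 424 to 1040.2 in the irradiated samples, at -1.29 ± 0.37 in WBIR and -1.12 ± 0.37 in RCI (SE, adjusted p = 0.00610 and 0.0143). With TMM scaling these were -0.58 and -0.47 and neither was called. Itgb2, its beta chain, was 1408, 2336 and 1134 in Sham and 2165 to 3441 in the irradiated samples, with a rise of 0.82 ± 0.27 in WBIR (adjusted p = 0.0131) and a value of 0.57 ± 0.27 in RCI that was not called (adjusted p = 0.0719). With TMM scaling Itgb2 was called in all 4 groups, at 1.52 in WBIR and 1.11 in RCI (adjusted p = 4.9e-05 and 0.000604). Itgam was called in no group with the reference genes, and in RCI alone with TMM scaling, at 1.97 ± 0.74 (adjusted p = 0.0290). It was 963 in RCI replicate 3 against 44.6 to 320.2 in all other samples. Selplg, a ligand of selectins, was a low count gene, with 5 to 65 raw counts per sample. It was 30.9, 129 and 54.8 scaled counts in Sham and 7.01 to 31.6 in the irradiated samples, and was lower, at -2.23 ± 0.58 in WBIR and -2.18 ± 0.57 in RCI (adjusted p = 0.00331 and 0.00354). With TMM scaling it was at -1.48 and -1.63 (adjusted p = 0.0117 and 0.00556).

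**Figure D4:**
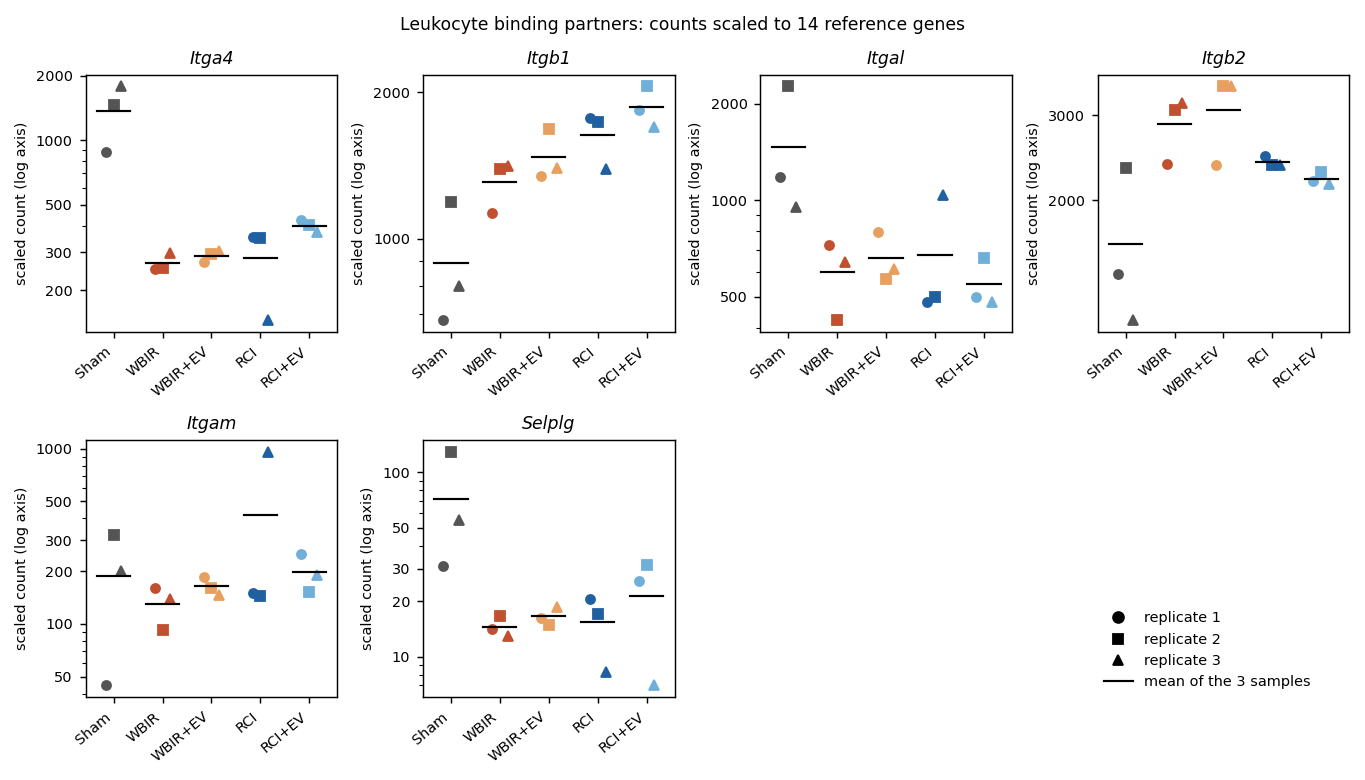
Scaled counts on log axes (y axes) of 6 genes that encode leukocyte partners of the adhesion molecules, each point a sample by group (x axes, with EV for MSC-EVs), with marker shape for the replicate and a line for the mean of 3. Itga4 is below Sham in all 12 irradiated samples, and RCI replicate 3 alone is high in Itgam.

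Lists of neighbouring pathways are described by their counts in WBIR and RCI against Sham, to be read beside the shares of all genes, 21.6% higher and 46.9% lower in WBIR and 26.5% and 43% in RCI. Of 15 leukocyte counter-receptors, 3 were higher and 8 lower in WBIR and 3 higher and 7 lower in RCI, with medians of -0.99 and -0.62. With TMM scaling they were 5 higher and 5 lower in WBIR and 7 higher and 6 lower in RCI. The shares of all genes moved as well, to 31.7% higher and 35.2% lower in WBIR and 35.4% and 35% in RCI. Cd2, a T cell adhesion molecule, was at -2.75 and -2.24. Of 10 other adhesion and vascular genes, 2 were higher and 4 lower in WBIR and 3 higher and 3 lower in RCI, with medians of -0.54 and 0.36. TMM scaling gave 4 higher and 3 lower in WBIR and 5 higher and 3 lower in RCI, and turned the WBIR median to 0.12. Among them Plau, the urokinase protease, was at 2.73 and 2.62 and Gp1bb, a platelet receptor subunit, at 2.75 and 2.62, whereas Plaur, the urokinase receptor, was at -3.40 and -2.73. Protease and receptor thus differed in direction in both injuries.

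Of 17 inducers of endothelial adhesion molecules, 3 were higher and 6 lower in WBIR and 5 higher and 5 lower in RCI, with medians of -0.56 and -0.34. With TMM scaling they were 4 higher and 4 lower in WBIR and 6 higher and 2 lower in RCI, and both medians turned above 0, to 0.0076 and 0.15. The cytokine Il1a was at 2.26 in WBIR and 4.81 in RCI, where RCI replicate 3 stood at 1794 scaled counts against 168 and 244 in its group mates and 11.8 to 38.0 in Sham. The lymphotoxin receptor Ltbr was at 2.13 and 3.12, while its ligand subunit Ltb was at -2.82 and -2.20. Of 16 NF-kB and IRF factors, 1 was higher and 12 lower in WBIR and 1 higher and 6 lower in RCI. TMM scaling left 5 and 3 of them lower, so that count rests on the scaling. The kinase subunit Ikbkb was at -2.23 and -1.63, Ikbkg at -1.53 and -1.57, and Nfkbia, which encodes the inhibitor that NF-kB itself induces, at -2.06 and -1.68. Of 16 genes of focal adhesion kinase and Src family signalling, Ptk2 included, 3 were higher and 9 lower in WBIR and 5 higher and 10 lower in RCI, and with TMM scaling 6 were higher and 6 lower in each. The largest changes were those of the T cell kinase Zap70 at -2.69 and -2.38, Mapk11 at -2.49 and -2.83 and the phosphatase Ptpn22 at -2.20 and -1.96. Several of these are lymphocyte genes, and the lymphocyte markers were lower as well. The part of lymphocytes in these values was not tested.

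Markers of other cells were counted too. The macrophage markers Marco, Msr1 and Emr1 were at 3.50, 3.18 and 3.67 in WBIR and 4.77, 4.57 and 3.99 in RCI. Of the 8 in the list, 5 were higher and 1 lower in each. With TMM scaling 7 were higher in WBIR and 6 in RCI, and 0 were lower. Marco was 30247 scaled counts in RCI replicate 3 against 3501 and 5125 in its group mates. The B cell genes Cd22 and Pax5 were at -5.18 and -4.79 in WBIR, and the T cell genes Cd8a, Cd8b1 and Cd6 at -3.86, -4.00 and -2.94. All 9 B cell and all 11 T cell genes were lower in WBIR and in RCI. Of 11 stromal genes, 5 were higher and 1 lower in WBIR, and 8 were higher and 1 lower in RCI. Among the higher ones C4a was at 2.53 and 4.10, C1ra at 2.45 and 3.07, and C1s at 1.86 and 3.29. The summed stromal markers were 1177 to 2827 in WBIR, 3210.2 to 5432 in RCI and 2557 to 2621 in RCI+MSC-EVs. On this scale RCI was the highest group, as its mean was in Cdh5 and Cd34. With TMM scaling the stromal sums of RCI, at 3063 to 6863, overlapped those of WBIR, at 1403 to 3297. The part of stroma in the Cdh5 and Cd34 values was not tested. Of 7 neutrophil genes 4 were lower in each injury, with Camp at -7.85 and -6.60, S100a9 at -2.86 and -4.19, and S100a8 at -2.72 and -3.79. Of 4 platelet genes 2 were higher in WBIR and 3 in RCI, and the others were not called. Gp1bb and Ppbp were higher in both, Ppbp at 2.20 and 2.31. With TMM scaling all 4 were higher in each. Of 5 progenitor genes 3 were lower in each, Gfi1 (-2.23 in RCI), Ikzf1 at -1.52 and -1.27, and Runx1 at -0.53 and -0.48. In RCI 1 was higher, and with TMM scaling 1 was higher and 2 were lower in each.

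No member was called for MSC-EVs in either injury. In WBIR+MSC-EVs against WBIR edgeR called 0% of all genes, and 0 members and 2.58% of all genes had an unadjusted p under 0.05. In RCI+MSC-EVs against RCI it called 0% again, with 2 members and 3.29% of all genes under 0.05 unadjusted. TMM scaling, DESeq2 and limma called no gene in either. Both members were the low count genes: Cdh5 was lower, at -0.89 ± 0.39 (SE, 95% interval -1.73 to -0.06, unadjusted p = 0.0375) and Cd34 was at -1.26 ± 0.58 (interval -2.50 to -0.01, unadjusted p = 0.0480). For each, the 3 RCI+MSC-EVs samples lay below the 3 RCI samples under both scalings. The share of all genes that separate in this way was not counted. The adjusted p of Cdh5 and Cd34 was 0.579 or more in every alternative, so neither held up over the panel.

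The intervals show what the design could not exclude for MSC-EVs. Averaged over both injuries, 6 treated against 6 untreated samples, Cdh5 was at -0.77 ± 0.28 (SE, interval -1.38 to -0.16, unadjusted p = 0.0170, adjusted p = 0.802) and Cd34 at -0.85 ± 0.43 (interval -1.78 to 0.08). Ptk2 was the most tightly bounded, at 0.09 with an interval from -0.17 to 0.35, and Icam2 followed at 0.21, from -0.17 to 0.59. Vcam1 was at 0.23 with an interval from -0.77 to 1.22, which leaves room for more than a 2-fold change upward. In this average edgeR called 0% of all genes, and 1 member and 3.29% of all genes had an unadjusted p under 0.05. DESeq2 called 1 gene there, no member. The test of whether MSC-EVs acted differently in RCI and in WBIR called 0% of genes, with 0 members and 2.58% of all genes under 0.05 unadjusted, and for Cd34 it was -0.81 with an interval from -2.67 to 1.05.

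No member was called for the burn by edgeR, although 4 of them had an unadjusted p under 0.05 when treatment was averaged. In RCI against WBIR edgeR called 0.704% of all genes and 0 members, and 3 members and 16.7% of all genes had an unadjusted p under 0.05. These were Cd34 at 1.48 ± 0.59 (SE, interval 0.21 to 2.74), Cdh5 at 0.94 ± 0.39 (interval 0.10 to 1.78) and Icam2 at 0.60 ± 0.25 (interval 0.07 to 1.14). With treatment averaged, 6 burned against 6 unburned irradiated samples, edgeR called 3.05% of all genes and 0 members, with 4 members and 25.8% of all genes under 0.05 unadjusted. Icam1 was at -0.86 ± 0.24 (adjusted p = 0.0542), Cdh5 at 0.81 ± 0.28 (adjusted p = 0.0882), Icam2 at 0.50 ± 0.18 (adjusted p = 0.0882) and Cd34 at 1.07 ± 0.43 (adjusted p = 0.131). Ptk2 was at -0.00 with an interval from -0.26 to 0.26. With TMM scaling 2 members were under 0.05 unadjusted in each comparison, beside 71 and 104 of all 426 genes. They were Cd34 and Cdh5 in RCI against WBIR, and Icam1 and Cdh5 with treatment averaged. Icam2 was then at 0.46 and 0.33 (unadjusted p = 0.0855 and 0.0837). Cd34 with treatment averaged was at 0.94 (unadjusted p = 0.0568). With the 7 least variable reference genes 1 member was under 0.05 in each, beside 60 and 78 genes.

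Icam1, Cdh5 and Icam2 were called for the burn under some alternatives. DESeq2, which called 16% of all genes, called Icam1 (adjusted p = 0.0101) and Icam2 (adjusted p = 0.0488), and Icam2 was also called without the 3 libraries that stood apart. Only these 2 of 24 alternatives called Icam2, and its adjusted p ran up to 0.524. With TMM scaling it was at 0.33 (adjusted p = 0.274). Icam1 was also called with the 7 least variable reference genes (-1.11, adjusted p = 0.0397) and without RCI replicate 3. These settings called 4 and 20 of all genes. The adjusted p of Icam1 ran from 0.00409 to 0.113 over 24 alternatives, 8 of which called it. RCI replicate 3 was the highest burned sample in Icam1. Cdh5 was called with the compared groups alone, without Sham replicate 2 and without WBIR replicate 1, at 0.82, 0.82 and 1.08 (adjusted p = 0.0449, 0.0369 and 0.0472). Those settings called 76, 79 and 11 of the 426 genes, against 13 with all 15 samples. Among the inducers, Il1r1, the interleukin 1 receptor, was called higher in burned mice, at 1.55 ± 0.24 (SE, adjusted p = 0.00379), and so were Tnf, Ltb and Ltbr, at 1.76, 0.77 and 0.82 (adjusted p = 0.0472 each). With TMM scaling Il1r1 and Ltbr kept the call, while Tnf was at 1.67 (adjusted p = 0.0607) and Ltb at 0.58 (adjusted p = 0.105). Tnf was 264 scaled counts in RCI replicate 3 and 47.3 to 95.8 in the other 5 burned samples.

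**Figure D5:**
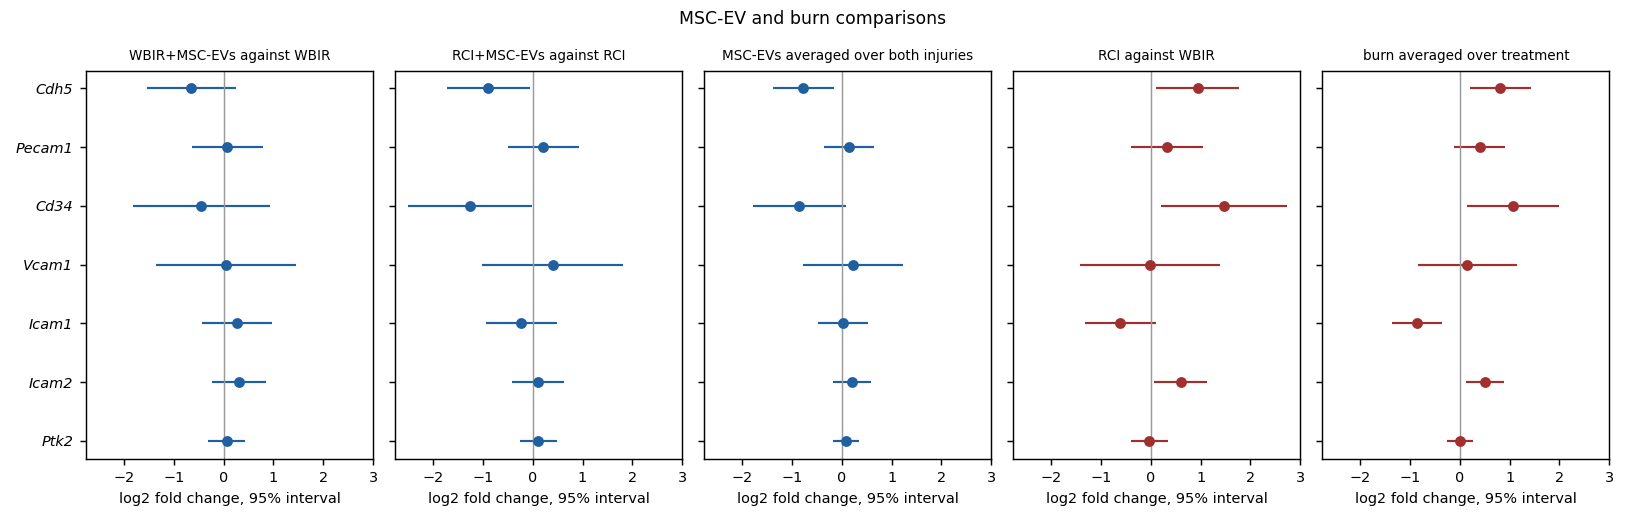
Log2FC with 95% intervals (x axes) of the 7 genes (y axis) for MSC-EVs in each injury and averaged (blue), and for the burn without MSC-EVs and averaged over treatment (red). No gene passed the adjusted threshold, Cdh5 and Cd34 are left of 0 in the blue panels and right of 0 in the red panels, and Ptk2 has the narrowest intervals.

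In the order of group means of scaled counts, neighbours mostly overlapped. For Cdh5 the order was WBIR+MSC-EVs, Sham, WBIR, RCI+MSC-EVs and RCI, and RCI was the only step without overlap, at a mean of 53.8 ± 7.78 (SD, n = 3) against 29.0 ± 3.96 in RCI+MSC-EVs. For Cd34 the order ended in the same way, with RCI at 58.3 against 24.6 in RCI+MSC-EVs. For Icam2 only the step from RCI+MSC-EVs to Sham had no overlap, and for Ptk2 only the step from Sham to RCI. For Pecam1, Vcam1 and Icam1 every pair of neighbours overlapped.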

How the data were processed

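Spleen RNA was hybridised by the authors on the nCounter Mouse Immunology Panel, which counts colour-coded barcodes without amplification, and they normalised in nSolver afterwards. The deposited values are raw barcode counts, as the values show: whole numbers with unequal totals. Control probes and run dates were not used here. Groups and replicate numbers came from the labels. The members and gene lists were chosen with earlier results of these data known.

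Counts were scaled to the geometric mean of 14 reference genes, and 426 of 547 endogenous genes were tested, those averaging 20 counts or more. Tests were two-sided quasi-likelihood tests of edgeR 4.0.16 (robust glmQLFit, glmQLFTest; R 4.3.3), with all 15 samples, 1 coefficient per group and Benjamini-Hochberg adjustment over the tested genes. Alternatives were TMM, median-of-ratios scaling, the 7 least variable reference genes, no filter, DESeq2 1.42.0, limma 3.58.1 on log2(scaled count + 10), the compared groups alone, a replicate block and leaving out each sample. A block within each injury and leaving out the 3 libraries that stood apart were added after seeing the data. The script was tested on simulated data. The common dispersion of 0.110 is a coefficient of variation of 33.1% between replicates. Low count genes are limited by counting error as well.

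Samples with the same number deviated together within each injury (r of 0.706, 0.452 and 0.323 in WBIR, and 0.287, 0.381 and 0.566 in RCI). Across all groups they did not, and the lowest r was -0.502. The main tests did not pair samples, and the added block paired numbers within an injury alone. Genes were named by a rule: all members, their binding partners, the 3 genes most like each member on log2(count + 1), and up to 3 genes per list with the largest mean change among those called in WBIR and RCI. Il1r1, Tnf, G6pdx and Tubb5 were named after their values were seen. Some genes of the rule are not reported here. Names followed the table. Promoters came from RefSeq, and 95% intervals used the degrees of freedom of each gene's test.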

Additional observations from a re-analysis of the deposited data

How the results depend on the processing

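Over the 7 genes, Icam2 and Ptk2 kept their direction and call against Sham in all 24 alternatives of each of the 4 comparisons, and Cdh5 did so in RCI. The members called in WBIR rose from 3 to 5 with TMM, with median-of-ratios scaling and without the 3 libraries that stood apart. Over all 426 genes the calls in WBIR went from 292 to 285, 288 and 315 in that order. In RCI the members called rose from 3 to 6 with TMM and with median-of-ratios scaling, and to 5 with DESeq2. There the calls over all genes went from 296 to 300, 300 and 303. For the burn averaged over treatment the members called rose from 0 to 1 with the 7 least variable reference genes and with the replicate block, and to 2 with DESeq2, with the compared groups alone and without the 3 libraries. Over all 426 genes 13 were called for the burn at first. That count was 4 with the 7 reference genes, 16 with the replicate block, 68 with DESeq2 and 76 with the compared groups alone. Leaving out 1 library at a time gave 2 to 4 members called in WBIR, 3 to 4 in RCI and in WBIR+MSC-EVs alike, 2 to 3 in RCI+MSC-EVs and 0 to 2 for the burn. Over all 426 genes the same fits called 272 to 312 in WBIR and 284 to 300 in RCI. With vesicles they called 266 to 310 in WBIR+MSC-EVs and 255 to 305 in RCI+MSC-EVs. For the burn they called 2 to 79, and the 79 came without Sham replicate 2, where 2 members were called.

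The replicate block moved Icam1 for the burn to -0.88 (adjusted p = 0.0492) and took the Vcam1 call from WBIR+MSC-EVs (1.58, adjusted p = 0.0689). It put Ptk2 for the burn at 0.00053. Pairing within each injury changed no member's call for MSC-EVs.

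Direction turned mostly in values near 0, and the cause was not tested. Against Sham, TMM and median-of-ratios scaling put Pecam1 at 0.074 and 0.090 in WBIR and 0.20 and 0.22 in RCI, at 0.048 and 0.079 in WBIR+MSC-EVs and at 0.30 and 0.29 in RCI+MSC-EVs, and Cd34 at 0.46 and 0.47 in WBIR. Without the 3 libraries Pecam1 was at 0.30 in RCI, 0.029 in WBIR+MSC-EVs and 0.30 in RCI+MSC-EVs. Limma put Cdh5 in WBIR+MSC-EVs at -0.0016, and the 7 reference genes put Cd34 in RCI+MSC-EVs at -0.065. For MSC-EVs in WBIR, TMM and median-of-ratios scaling gave -0.026 and -0.011 for Pecam1, -0.049 and -0.036 for Vcam1, and -0.042 and -0.031 for Ptk2. In RCI they gave -0.060 and -0.093 for Icam2 and -0.055 and -0.092 for Ptk2, and averaged over both injuries -0.14 and -0.16 for Icam1 and -0.048 and -0.062 for Ptk2. Without the 3 libraries MSC-EVs in RCI gave -0.12 for Vcam1 and 0.20 for Icam1, and RCI against WBIR gave 0.50 for Vcam1. For the burn, Vcam1 was at -0.098, -0.12, -0.079 and -0.11 with TMM, median-of-ratios scaling, the 7 reference genes and limma.

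Leaving out 1 library at a time, Cd34 against Sham ran from -0.60 to 0.45 in WBIR, -1.05 to 0.0017 in WBIR+MSC-EVs, 0.88 to 1.92 in RCI and -0.37 to 0.67 in RCI+MSC-EVs. Pecam1 ran from -0.58 to 0.090 in RCI and -0.37 to 0.30 in RCI+MSC-EVs, Cdh5 from -0.19 to 0.44 in WBIR+MSC-EVs, and Icam1 from -0.062 to 0.37 in RCI+MSC-EVs. For MSC-EVs in WBIR the ranges were -0.077 to 0.27 for Pecam1, -0.81 to 0.11 for Cd34 and -0.18 to 0.32 for Vcam1. In RCI they were -0.12 to 0.75 for Vcam1, -0.50 to 0.20 for Icam1 and -0.040 to 0.28 for Icam2, and averaged -0.032 to 0.40 for Vcam1 and -0.12 to 0.24 for Icam1. RCI against WBIR gave -0.37 to 0.50 for Vcam1 and -0.071 to 0.026 for Ptk2, and the burn -0.023 to 0.41 for Vcam1 and -0.024 to 0.025 for Ptk2.

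Cdh5, Cd34 and the partner Selplg are limited by depth, with as few as 5, 8 and 5 raw counts in a sample. The 3 replicates of a group, the moving reference genes and the absence of a run record limit all the comparisons.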
